A study of Mus musculus with 8 samples.

Results

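The genes described here build and reshape mitochondria: Opa1 and Oma1 of the inner membrane, Mfn1 and Mfn2, which fuse outer membranes, Dnm1l, Fis1 and Mff, which divide the organelle, and Immt and Chchd3, which shape cristae. They were chosen by symbol for these roles and make up 9 of the 23432 genes listed for each library. Bulk polyadenylated RNA was sequenced from mouse skin in 4 groups of 2 libraries, 8 in all. At E16.5, epithelial cells of back skin that carried the K14-H2BGFP reporter were collected by FACS from control and MOF cKO embryos, and at P0.5 epidermis was peeled from dermis after dispase from control and Kansl1 cKO pups. MOF cKO skin was MOFfl/fl/K14Cre and Kansl1 cKO skin Kansl1fl/fl/K14Cre on a mixed C57Bl/6J and CD-1 background, with Cre driven by the Krt14 promoter and therefore acting in keratinocytes, not in the other cells of the skin. The controls are labelled only as Control, and were littermates. MOF, encoded by Kat8, is a histone acetyltransferase, and Kansl1 is a subunit of one of the complexes through which it acts. Stage, isolation and sequencing differ together between E16.5 and P0.5 and cannot be told apart.

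Mitochondria form a network that is continually joined by fusion and cut by fission. Mitofusins tether and merge outer membranes, OPA1 merges inner membranes and holds cristae junctions narrow, and DRP1, the product of Dnm1l, is drawn to the surface by receptors such as MFF and FIS1 to constrict and cut the tubule. Cristae, the folds that carry the respiratory chain, are anchored at their necks by the MICOS complex, and keratinocytes take their mitochondria apart as they cornify.

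The depth at E16.5, as reads counted on genes, was 27561688 and 24957817 for control and 22484018 and 25876862 for MOF cKO. At P0.5 it was 9108709 and 14327981 for control and 19774643 and 13712311 for Kansl1 cKO. Levels are given as CPM, the counts scaled to a common library size, after TMM scaling within each stage, a scale on which 1 count stood for between 0.0326 and 0.115 CPM. Tests are edgeR's quasi-likelihood test with Benjamini-Hochberg adjustment over all tested genes, and a call needs both an adjusted p no higher than 0.01 and a fold change above 1.5. All 9 genes passed the filter on low counts in every comparison. With 2 libraries in a group, the p-values measure only the spread between these samples, and in bulk RNA fewer cells with a transcript and less of it in each cell cannot be told apart.

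The deleted genes were examined first. Kat8 stood at 14.4 and 14.7 CPM in E16.5 control and at 12.4 and 13.9 CPM in MOF cKO, with a log2 fold change of -0.14 (SE 0.179, edgeR quasi-likelihood, Benjamini-Hochberg adjusted p = 0.554). Kansl1 stood at 40.7 and 48.2 CPM in P0.5 control and at 31.4 and 30.6 CPM in Kansl1 cKO (log2 fold change -0.52, SE 0.167, edgeR quasi-likelihood, Benjamini-Hochberg adjusted p = 0.242). Both were lower in each deleted library than in either control, without passing the threshold, and counts over a whole gene do not separate the deleted exons from the rest, so they do not check the deletion. Sex was not matched between the groups. E16.5 control replicate 1 had 1520 CPM of Xist and the other E16.5 libraries had 9.99 to 12.0 CPM, while at P0.5 control replicate 2 had 1.23 CPM and the others 371 to 427 CPM. None of the 9 genes lies on a sex chromosome.

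Markers of other cells moved as well. At E16.5, 11 of 13 leukocyte markers were tested, all 11 were higher in MOF cKO and 7 were called. Their summed level was 20.7 and 46.4 CPM in control against 105 and 136 CPM in MOF cKO, and Csf1r, the most abundant over the 8 libraries, went from 0.196 and 0.903 CPM to 10.3 and 11.6 CPM, while Tyrobp had 0 counts in control replicate 2, Cd163 in MOF cKO replicate 1 and Cd207 in both of these. Suprabasal markers, led by Krt1, summed to 4020 and 3260 CPM in control and to 8830 and 9740 CPM in MOF cKO, with 4 of 5 called higher. Of 6 hair follicle markers, led by Krt17, 3 were called lower, and their sums were 2030 and 2850 CPM in control and 2570 and 3520 CPM in MOF cKO. Krt17 itself was higher without being called (DESeq2 log2 fold change 0.585). At E15.5 the study reads Krt17 as a hair germ marker in control and a marker of stressed cells in MOF cKO. Among the basal markers 1 of 7 was called lower, and their sums, led by Krt5, were 37400 and 35600 CPM in control and 31300 and 38500 CPM in MOF cKO, the largest of all marker sums at this stage. Sums of 8 fibroblast markers, led by Dcn, were 918 and 1560 CPM in control and 1550 and 2160 CPM in MOF cKO, with 0 called by edgeR, 2 called higher by DESeq2, and 6 higher and 1 lower at an unadjusted p under 0.05 in edgeR. Endothelial and mural markers, led by Acta2, summed to 6.39 and 8.19 CPM in control and to 29.9 and 30.8 CPM in MOF cKO, with 2 of 6 tested called higher, and Rgs5 had 0 counts in control replicate 1. Melanocyte markers, led by Dct, summed to 15.0 and 47.4 CPM in control and 20.3 and 74.3 CPM in MOF cKO, with none called by edgeR, 1 called higher by DESeq2 and 1 higher at an unadjusted p under 0.05 in edgeR. Of the muscle markers, Myh3 was at 0.359 and 0.0722 CPM in control and 0.753 and 8.55 CPM in MOF cKO (edgeR adjusted p = 0.0265), and Ttn at 0 and 0.144 CPM in control and 1.71 and 1.19 CPM in MOF cKO (edgeR adjusted p = 0.0244). DESeq2 called these 2 genes higher and edgeR did not, and Des had 0 counts in control replicate 1. The part of these cells in the results below was not tested.

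At P0.5 none of the markers was called by edgeR, while DESeq2 called 4 fibroblast markers lower and 4 melanocyte markers higher. At an unadjusted p under 0.05 in edgeR, 6 fibroblast markers and the muscle marker Des were lower, and 6 melanocyte, 4 leukocyte, 2 hair follicle and 1 basal markers were higher. Fibroblast sums were 1760 and 1100 CPM in control and 927 and 741 CPM in Kansl1 cKO, with 7 of 8 markers lower and their median at -1.76 (log2 fold change). Melanocyte sums were 464 and 517 CPM in control and 994 and 1120 CPM in Kansl1 cKO, with 6 of 6 markers higher and a median of 1.13. Leukocyte sums were 197 and 233 CPM in control and 293 and 317 CPM in Kansl1 cKO, with Cd207 at 0 counts in all 4 libraries. Basal sums lay between 17600 and 19500 CPM over the 4 libraries and hair follicle sums between 1070 and 1620 CPM. Suprabasal sums were 73800 and 41200 CPM in control and 42700 and 70700 CPM in Kansl1 cKO, so the 2 libraries of each genotype were far apart and the groups overlapped. The muscle marker Actc1 was at 28.6 CPM in control replicate 1, where the others had 0.158 to 0.453 CPM, and Des at 18.1 CPM, where the others had 0.581 to 1.49 CPM. Myh3 had 0 counts in both Kansl1 cKO libraries and Kdr in the second, and the endothelial sum of control replicate 1 was 13.1 CPM, where the others had 3.24 to 4.85 CPM. The part of these cells was not tested here either.

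In MOF cKO, 1 of the 9 genes was called lower, against a share of 9.59% of the 13956 genes tested, and 0 were called higher, against 10%, so the count of calls was close to the background. DESeq2 called 2 lower and 0 higher, where over all genes it called 1735 lower and 1781 higher. At an unadjusted p under 0.05 in edgeR 2 were lower and 1 was higher, where 3506 and 3314 of all 13956 genes were. The log2 fold change of Opa1 went from -0.66 to -0.87 without E16.5 control replicate 2, and to -0.42 without E16.5 control replicate 1. Both MOF cKO libraries lay below both controls for 5 genes and above them for 1, against 37.7% and 34.9% of all tested genes. The median log2 fold change of the 9 genes was -0.14, beside -0.02 over all tested genes. Dividing by library size alone, in place of TMM, lowered the median of all genes to -0.32 and moved every gene down with it, so that Oma1 and Mff, higher under TMM, became lower.

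In Kansl1 cKO, edgeR called 0 of the 9 genes lower, against 0% of the 13031 tested, and 0 higher, against 0%. DESeq2 also called 0 of the 9, although it called 55 genes lower and 35 higher over the whole table, and at an unadjusted p under 0.05 in edgeR 1 of the 9 was lower and 0 were higher, where 1077 and 968 of all 13031 genes were. Both Kansl1 cKO libraries lay below both controls for 5 genes and above them for 2, against 22.7% and 26% of all tested genes. The median log2 fold change of the 9 genes was -0.06, beside 0.01 over all tested genes.

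**Figure D1:**
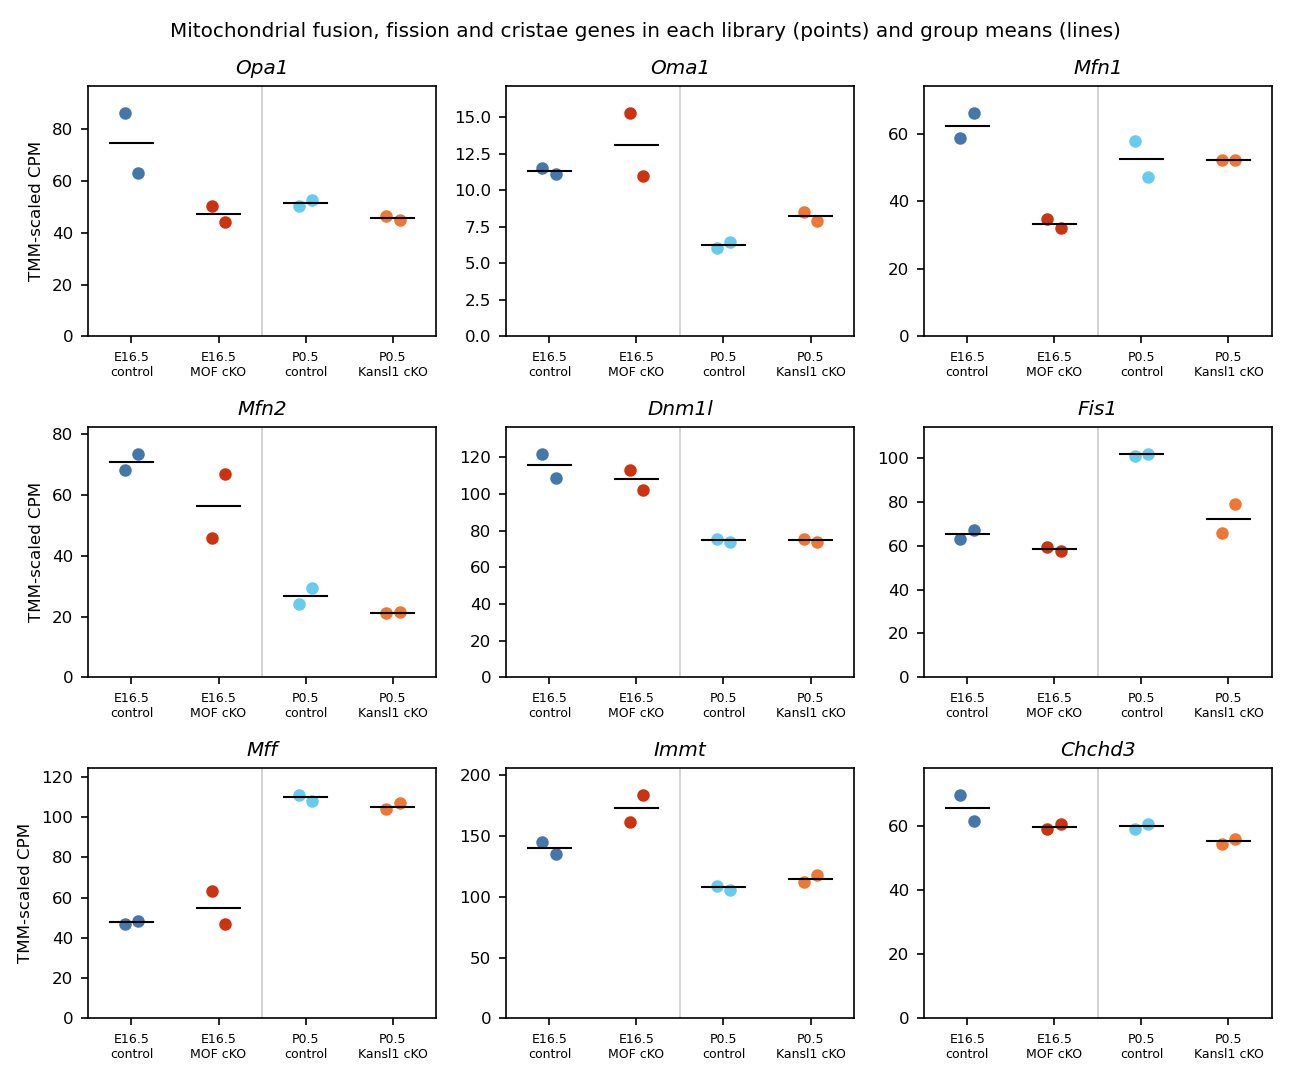
Level of each gene in TMM-scaled CPM, with each stage scaled by itself. Points are libraries (2 per group), lines are group means, and the axes start at 0. The MOF cKO libraries of Mfn1 sit at 34.7 and 32.0 CPM, below control at 58.6 and 66.2 CPM, and the Opa1 controls at E16.5 are far apart, at 86.3 and 63.0 CPM.

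Opa1 encodes the dynamin-like GTPase that fuses inner membranes, and lies on the plus strand at chr16:29579334-29654884 of mm10 (GENCODE M21). At E16.5 it had 2647 and 1744 counts in control against 1003 and 1046 in MOF cKO, or 86.3 and 63.0 CPM against 50.3 and 44.3 CPM. The groups did not overlap, but the 2 controls differed from each other by more than control replicate 2 differed from MOF cKO replicate 1. The log2 fold change was -0.66 (SE 0.170, 95% confidence interval -1.06 to -0.26), which left 63.4% of the control level and missed the threshold (edgeR quasi-likelihood, Benjamini-Hochberg adjusted p = 0.02). DESeq2 put the same difference past it (-0.64, adjusted p = 0.0031), as did library size alone (-0.965), a filter that keeps every gene with at least 1 count (-0.67) and the replicate number as a block (-0.64), within a range of adjusted p over all alternatives from 3.17e-06 (the block) to 0.105. The call depended on the controls: without control replicate 2 edgeR gave -0.87 and without control replicate 1 it gave -0.42. By other assays, the study reports lower Opa1 RNA in MOF cKO epidermis at E15.5, by in situ hybridization. It also reports lower Opa1 by qPCR in cultured keratinocytes after knockdown of Msl1.

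At P0.5 Opa1 was at 50.4 and 52.5 CPM in control and at 46.5 and 45.1 CPM in Kansl1 cKO. Both deleted libraries were lower by a small margin, with a log2 fold change of -0.17 (SE 0.149, edgeR quasi-likelihood, Benjamini-Hochberg adjusted p = 0.622). Oma1 encodes the inner-membrane protease that cuts OPA1 under stress, and had few counts, between 53 and 353 in a library. It was at 11.5 and 11.1 CPM in E16.5 control and at 15.3 and 11 CPM in MOF cKO, where the second library was just below the controls and the first above them. Its log2 fold change was 0.21 (SE 0.223, edgeR quasi-likelihood, Benjamini-Hochberg adjusted p = 0.48), which turned to -0.04 without MOF cKO replicate 1 and to -0.10 under library size alone. At P0.5 Oma1 was at 6.07 and 6.47 CPM in control and at 8.53 and 7.90 CPM in Kansl1 cKO, higher in both deleted libraries, with a log2 fold change of 0.39 (SE 0.248, edgeR quasi-likelihood, Benjamini-Hochberg adjusted p = 0.494).

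Counts of Opa1 and Oma1 from the same library give a ratio that no scaling between libraries can move. There were 7.50 and 5.66 Opa1 counts for each Oma1 count in E16.5 control and 3.30 and 4.02 in MOF cKO. At P0.5 the ratio was 8.30 and 8.12 in control and 5.45 and 5.70 in Kansl1 cKO. In each experiment the deleted libraries lay below the controls, where the P0.5 control ratios rest on 53 and 100 Oma1 counts. Opa1 and Immt, both of the inner membrane, gave 0.596 and 0.468 in E16.5 control and 0.310 and 0.240 in MOF cKO, again without overlap, and 0.463 and 0.493 in P0.5 control and 0.416 and 0.382 in Kansl1 cKO. These ratios are descriptions and were not tested.

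Mfn1 encodes a mitofusin that tethers neighbouring outer membranes, and lies on the plus strand at chr3:32529465-32579239 of mm10. It had 1797 and 1835 counts in E16.5 control against 692 and 756 in MOF cKO, or 58.6 and 66.2 CPM against 34.7 and 32.0 CPM. Both MOF cKO libraries were far below both controls, and the replicates of each group lay close together. Mfn1 fell by 0.90 on the log2 scale (SE 0.128, 95% confidence interval -1.20 to -0.60, edgeR quasi-likelihood, Benjamini-Hochberg adjusted p = 0.00202), a 1.87-fold difference that left 53.5% of the control level, and 15.8% of tested genes had a lower fold change. It was called under every one of the 12 alternatives, with log2 fold changes from -1.21 (library size alone) to -0.81 (without control replicate 2) and adjusted p from 1.12e-08 to 0.00516. With the median of all genes subtracted its difference was -0.88 under TMM and -0.89 under library size alone, values that agree because a scaling moves all genes nearly alike.

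Mfn1 was at 57.9 and 47.2 CPM in P0.5 control and at 52.3 and 52.2 CPM in Kansl1 cKO, which lay between the controls. The log2 fold change of -0.01 had a 95% confidence interval from -0.40 to 0.39, so a fall as large as the one in MOF cKO lay outside it (edgeR quasi-likelihood, Benjamini-Hochberg adjusted p = 0.992). Its sign turned without control replicate 1, to 0.15. The difference between the 2 deletions was itself fitted over the 8 libraries and came to -0.93 for Mfn1 (SE 0.210, 95% confidence interval -1.40 to -0.46), short of the threshold (edgeR quasi-likelihood, Benjamini-Hochberg adjusted p = 0.0223). Over the alternatives that adjusted p ran from 0.0108 to 0.137.

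Mfn2, the other mitofusin, also sits where mitochondria touch the endoplasmic reticulum, and lies on the minus strand at chr4:147873599-147904704. It was at 68.4 and 73.6 CPM in E16.5 control and at 46.0 and 66.9 CPM in MOF cKO. The second MOF cKO library almost reached the controls while the first was well below, and without that first library the log2 fold change shrank from -0.33 (SE 0.180, edgeR quasi-likelihood, Benjamini-Hochberg adjusted p = 0.188) to -0.09. At P0.5 Mfn2 was at 24.3 and 29.4 CPM in control and at 21.3 and 21.4 CPM in Kansl1 cKO. Both deleted libraries were below both controls, with a log2 fold change of -0.34 (SE 0.179, edgeR quasi-likelihood, Benjamini-Hochberg adjusted p = 0.415). Within a library, Mfn2 counts divided by Mfn1 counts were 1.17 and 1.11 in E16.5 control, 1.32 and 2.09 in MOF cKO, 0.420 and 0.623 in P0.5 control and 0.406 and 0.411 in Kansl1 cKO.

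**Figure D2:**
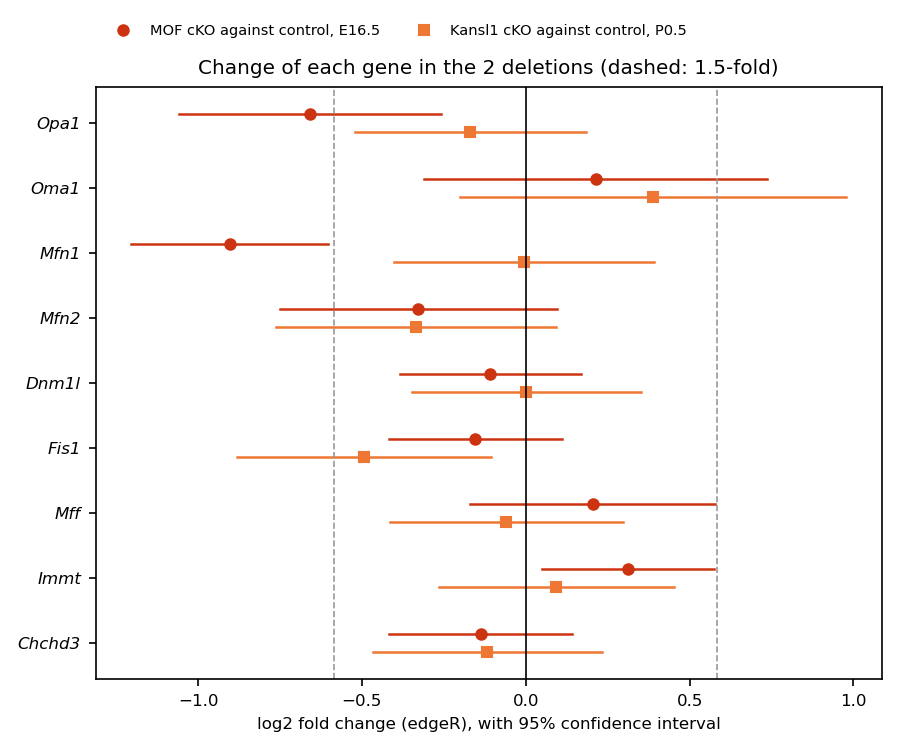
Log2 fold change of each gene in MOF cKO at E16.5 (circles) and in Kansl1 cKO at P0.5 (squares), with 95% confidence intervals from edgeR; dashed lines mark a 1.5-fold change. Mfn1 in MOF cKO, at -0.90, is the only point whose whole interval lies past the dashed line, and library size alone in place of TMM moves Oma1 and Mff in MOF cKO and Dnm1l in Kansl1 cKO below 0.

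The fission genes did not pass the threshold in either deletion. Dnm1l, which encodes the GTPase that cuts the tubule, was at 122 and 109 CPM in E16.5 control and at 113 and 102 CPM in MOF cKO, and at 75.3 and 74.1 CPM in P0.5 control and 75.5 and 74.1 CPM in Kansl1 cKO. The groups overlapped in both experiments. Its log2 fold changes were -0.11 in MOF cKO (SE 0.117, edgeR quasi-likelihood, Benjamini-Hochberg adjusted p = 0.498) and 0.00 in Kansl1 cKO (edgeR quasi-likelihood, Benjamini-Hochberg adjusted p = 0.997), the second without a stable sign across scalings.

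Fis1 and Mff encode outer-membrane proteins that serve as receptors for the fission GTPase. Fis1 was at 63.3 and 67.3 CPM in E16.5 control and at 59.5 and 57.7 CPM in MOF cKO. The MOF cKO libraries were lower by less than the fold required (log2 fold change -0.16, SE 0.113, edgeR quasi-likelihood, Benjamini-Hochberg adjusted p = 0.309). At P0.5 Fis1 was at 101 and 102 CPM in control and at 65.8 and 78.9 CPM in Kansl1 cKO. Of the 9 genes this was the lowest log2 fold change in Kansl1 cKO, -0.49 (SE 0.163, 95% confidence interval -0.88 to -0.11), and 13.5% of tested genes had a lower one. It did not pass the threshold (edgeR quasi-likelihood, Benjamini-Hochberg adjusted p = 0.248, with a range over the alternatives from 0.0774 to 0.742), and both deleted libraries stood below both controls.

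Mff was at 47.0 and 48.2 CPM in E16.5 control and at 63.0 and 46.7 CPM in MOF cKO. Only the first MOF cKO library was above the controls, and without it the log2 fold change went from 0.20 (SE 0.160, edgeR quasi-likelihood, Benjamini-Hochberg adjusted p = 0.344) to -0.03. At P0.5 it was at 111 and 108 CPM in control and at 104 and 107 CPM in Kansl1 cKO. These libraries lay close together, with a log2 fold change of -0.06 (edgeR quasi-likelihood, Benjamini-Hochberg adjusted p = 0.887).

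Immt encodes the core subunit of MICOS, and was the member with the most counts at E16.5, between 3232 and 4443. It was at 145 and 135 CPM in E16.5 control and at 162 and 184 CPM in MOF cKO. Both MOF cKO libraries were above both controls, which held for no other of the 9 genes at E16.5. The log2 fold change was 0.31 (SE 0.112, edgeR quasi-likelihood, Benjamini-Hochberg adjusted p = 0.0628) and shrank to 0.01 under library size alone. Chchd3, which links that core to the outer membrane, was at 69.7 and 61.6 CPM in E16.5 control and at 58.9 and 60.5 CPM in MOF cKO, lower by a small margin (log2 fold change -0.14, SE 0.119, edgeR quasi-likelihood, Benjamini-Hochberg adjusted p = 0.392). At P0.5 Immt was at 109 and 106 CPM in control and 112 and 118 CPM in Kansl1 cKO, and Chchd3 at 59.1 and 60.6 CPM in control and 54.4 and 56.0 CPM in Kansl1 cKO. The first was slightly higher and the second slightly lower in both deleted libraries, with log2 fold changes of 0.09 and -0.12.

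The difference between the 2 deletions was fitted for each gene. With edgeR 0 of the 9 passed the threshold, where 1.17% of the 14565 genes tested were called lower in MOF cKO relative to Kansl1 cKO and 1.76% higher. DESeq2 also called 0, and at an unadjusted p under 0.05 in edgeR 1 was lower, Mfn1, and 0 were higher, where 2388 and 2152 of all 14565 genes were. Opa1 came to -0.52 (edgeR quasi-likelihood, Benjamini-Hochberg adjusted p = 0.171), and to -0.29 without E16.5 control replicate 1. A change in 1 deletion and not in the other is therefore not shown for any of the 9, and the gene deleted, the stage and the isolation cannot be told apart in this contrast.

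The control groups of the 2 stages differed more. Marker transcripts of other cells and layers differed with stage as well: in the P0.5 controls 5 of 5 suprabasal markers (median log2 fold change 4.47), 10 of 12 tested leukocyte markers (6.50) and 6 of 6 melanocyte markers (4.215) were called higher, as were the muscle markers Des (5.94) and Ttn (6.24) and 1 of 8 fibroblast markers (median 0.59), while 3 of 7 basal markers (median -0.58) and 3 of 6 hair follicle markers (median -0.85) were called lower. Their part in the values below was not tested. From E16.5 sorted cells to P0.5 epidermis, 1 of the 9 genes was called lower, where 20.6% of all tested genes were, and 2 were called higher, where 19.6% were. Levels across stages and between genes are given as CPM per kilobase of exon on one scale over the 8 libraries. On that scale Mff was at 4.42 and 4.57 in the E16.5 controls and between 11.9 and 12.2 in the P0.5 controls, a log2 fold change of 1.42 (SE 0.157, edgeR quasi-likelihood, Benjamini-Hochberg adjusted p = 8.3e-05), or 2.68-fold. Fis1 rose from between 33.9 and 36.3 to between 63.0 and 64.3 CPM per kilobase, a log2 fold change of 0.86 (SE 0.133, edgeR quasi-likelihood, Benjamini-Hochberg adjusted p = 0.000557). Both fission receptors were thus higher in both P0.5 controls than in both E16.5 controls, although under library size alone Fis1, at 0.52, was no longer called.

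Mfn2 went the other way, from between 12.1 and 13.1 to between 4.99 and 6.09 CPM per kilobase. The log2 fold change was -1.18 (SE 0.196, edgeR quasi-likelihood, Benjamini-Hochberg adjusted p = 0.000831), which left 44.2% of the E16.5 level. It missed the threshold without E16.5 control replicate 2 (-1.02, edgeR adjusted p = 0.0106). Dnm1l (-0.42, edgeR adjusted p = 0.019) and Oma1 (-0.63, edgeR adjusted p = 0.0448) were lower at P0.5 without passing, and Dnm1l passed under library size alone, at -0.76. For Opa1, Mfn1, Immt and Chchd3 the log2 fold changes lay between -0.32 and 0.09. The value of Opa1, -0.32, went to -0.066 without E16.5 control replicate 1. In this contrast the median of all genes was -0.13 under TMM, 0.00 under median-of-ratios factors and -0.46 under library size alone, and with that median subtracted Mff stood at 1.55 under TMM and 1.54 under library size alone, Fis1 at 0.98 under both, and Mfn2 at -1.05 under both, as follows from a shift shared by all genes.

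Ordered by CPM per kilobase, Fis1 was highest in all 4 groups, at 35.1 ± 1.69 (SD, n = 2) in E16.5 control, 31.5 ± 0.727 in MOF cKO, 63.7 ± 0.908 in P0.5 control and 46.2 ± 5.70 in Kansl1 cKO. Chchd3 and Dnm1l followed in each group, and overlapped in both E16.5 groups. In E16.5 control the order went on with Mfn2 at 12.6 ± 0.717, Immt at 11.3 ± 0.534, Mfn1 at 9.41 ± 0.861, Opa1 at 8.73 ± 1.89, Oma1 at 4.86 ± 0.0956 and Mff at 4.50 ± 0.104 CPM per kilobase, with Mfn1 and Opa1 overlapping. In MOF cKO the last 4 places were held by Oma1 (5.65 ± 1.30), Opa1 (5.54 ± 0.505), Mff (5.19 ± 1.10) and Mfn1 (5.04 ± 0.294), whose libraries overlapped from 1 place to the next. At P0.5 the order was the same in both groups, with Mff in the fourth place at 12.0 ± 0.182 CPM per kilobase in control and Oma1 last at 3.13 ± 0.155, and with Immt and Mfn1 overlapping in control. When the longest transcript was used as the length in place of the union of exons, Fis1 remained the highest in all groups, while other places changed, as for Mff, which moved from the ninth to the seventh place in E16.5 control.

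Beyond the 9 genes, 60 others of mitochondrial dynamics and cristae were listed, of which 58 were tested in MOF cKO. These lists, and the list of mitochondrial content below, were chosen with earlier results of these data known. By edgeR 6 were called lower and 7 higher, and by DESeq2 6 and 8, with their median log2 fold change at 0.06, beside -0.02 over all genes. As 9.59% of all tested genes were called lower and 10% higher, the counts over this list were near the background. Under library size alone the counts became 10 lower and 1 higher, as the calls over all 13956 genes went from 1338 lower and 1395 higher to 2743 and 769, so the list followed the shift of all genes. The 13 called genes kept their direction under every alternative run. In Kansl1 cKO 57 were tested and edgeR called 0, with 5 lower and 0 higher at an unadjusted p under 0.05, 0 called by DESeq2, and a median of -0.11 beside 0.01.

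Among regulators of outer-membrane fusion, 3 of 8 tested genes were called lower in MOF cKO, against 9.59% of all tested genes, and 0 higher, against 10%, with a median of -0.67 beside -0.02. In all 5 were lower and 3 higher, with 4 and 2 of them at an unadjusted p under 0.05 (3506 and 3314 of all 13956 genes). The higher ones were at most at 0.39. Both MOF cKO libraries lay below both controls for 5 and above them for 3, where 37.7% and 34.9% of all tested genes did. Miga1, listed as Fam73a, encodes an outer-membrane protein that promotes fusion. It was at 24.6 and 23.0 CPM in control and at 7.23 and 5.63 CPM in MOF cKO. The libraries were far apart by genotype, with a log2 fold change of -1.89 (SE 0.201, edgeR quasi-likelihood, Benjamini-Hochberg adjusted p = 0.000775) and 27.0% of the control level left, while in Kansl1 cKO it was -0.04. Pink1, the kinase that marks damaged mitochondria, went from 36.7 and 45.2 CPM to 22.4 and 20.4 CPM (-0.93, edgeR adjusted p = 0.00393). Usp30, a deubiquitinase of the outer membrane, went from 20.7 and 24.8 CPM to 11.3 and 12.1 CPM (-0.96, edgeR adjusted p = 0.00576), and missed the threshold without control replicate 2 (-0.82) or MOF cKO replicate 1 (-0.91). All 3 were thus lower in both MOF cKO libraries, and in Kansl1 cKO Usp30 and Pink1 came to -0.11 and -0.17 and were not called.

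Among fission adaptors and regulators, 3 of 11 tested genes were called higher in MOF cKO, against 10% of all tested genes, and 0 lower, against 9.59%, with a median of 0.27 beside -0.02. In all 10 were higher and 1 lower, and that one, at -1.07, had both MOF cKO libraries below both controls without passing the test. Both MOF cKO libraries lay above both controls for 7, where 34.9% of all tested genes lay above and 37.7% below. This tally was made under TMM only, while library size alone lowered the median of all genes from -0.02 to -0.32. Inf2, a formin that builds actin at the site of constriction, went from 64.7 and 83.5 CPM to 150 and 196 CPM (1.22, SE 0.173, edgeR quasi-likelihood, Benjamini-Hochberg adjusted p = 0.00202). Pgam5, a mitochondrial phosphatase that acts on the fission GTPase, went from 37.5 and 31.7 CPM to 63.7 and 58.1 CPM (0.81, edgeR adjusted p = 0.00378), and Mtfr1l from 31.5 and 26.0 CPM to 45.5 and 51.2 CPM (0.75, edgeR adjusted p = 0.00731). All 3 were higher in both MOF cKO libraries, but only Inf2 was still called under library size alone, where Pgam5 was at 0.51 and Mtfr1l at 0.45. Pgam5 also missed the threshold without MOF cKO replicate 1 (0.74), and Mtfr1l without control replicate 2 (0.62), without MOF cKO replicate 2 (0.66) and under upper-quartile factors (0.69). In Kansl1 cKO these 3 genes came to 0.35, -0.17 and -0.03. Inf2 went to 0.084 there without Kansl1 cKO replicate 1 and to 0.54 without Kansl1 cKO replicate 2.

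Of 12 further genes of MICOS and its bridge to the outer membrane, 3 were called lower and 2 higher in MOF cKO, against 9.59% and 10% of all tested genes, with a median of 0.09 beside -0.02. Mtx3, of the outer-membrane sorting machinery, went from 25.3 and 29.8 CPM to 10.0 and 8.64 CPM (-1.56, SE 0.181, edgeR quasi-likelihood, Benjamini-Hochberg adjusted p = 0.001). Chchd6, a MICOS subunit related to Chchd3, went from 22.6 and 23.3 CPM to 13.0 and 9.61 CPM (-1.03, edgeR adjusted p = 0.00644), and Mtx1, a partner of Mtx3, from 38.9 and 36.6 CPM to 23.3 and 22.5 CPM (-0.72, edgeR adjusted p = 0.00574). These 3 were lower in both MOF cKO libraries, whereas Immt and Chchd3, described above, were not called. Chchd6 missed the threshold without MOF cKO replicate 2 (-0.83), and Mtx1 without control replicate 1 (-0.68), MOF cKO replicate 1 (-0.75) or MOF cKO replicate 2 (-0.70). Chchd2 was higher, from 152 and 135 CPM to 246 and 228 CPM (0.73, edgeR adjusted p = 0.0027), as was Chchd10, which was named after its values were seen, from 6.20 and 4.66 CPM to 16.7 and 11.5 CPM (1.37, edgeR adjusted p = 0.00824). Neither of these was called under library size alone, at 0.42 and 1.07 (edgeR adjusted p = 0.017 and 0.018), and Chchd10 missed the threshold without MOF cKO replicate 1 (1.07). Of these 12 genes Mtx1 had the lowest value in Kansl1 cKO, at 24.9 and 28.0 CPM in control and 16.7 and 13.7 CPM in the deletion (-0.80, SE 0.192, edgeR quasi-likelihood, Benjamini-Hochberg adjusted p = 0.203). Mtx3 was at -0.61, and went to -0.97 without Kansl1 cKO replicate 1 and to -0.365 without Kansl1 cKO replicate 2. Mtx1 and Mtx3 were below control in both deleted libraries without being called.

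Of 12 genes of OPA1 processing and the inner-membrane scaffold, 1 was called higher and 0 lower in MOF cKO by both edgeR and DESeq2, near the 10% and 9.59% of all tested genes, with 4 higher and 0 lower at an unadjusted p under 0.05 in edgeR and a median of 0.01 beside -0.02. That gene was Phb, a prohibitin of the ring-shaped inner-membrane scaffold, at 148 and 123 CPM in control and 210 and 220 CPM in MOF cKO (0.67, edgeR adjusted p = 0.0051). It missed the threshold without control replicate 2 (0.55), without MOF cKO replicate 2 (0.63) and under library size alone (0.36), and in Kansl1 cKO it was at 0.21. Of 9 genes of cardiolipin synthesis, edgeR called 1 higher and 0 lower, also near those shares, and DESeq2 called 2 higher and 0 lower, with 3 higher and 0 lower at an unadjusted p under 0.05 in edgeR and a median of 0.05. Prelid1, which carries the precursor lipid across the intermembrane space, went from 291 and 277 CPM to 526 and 481 CPM (0.83, edgeR adjusted p = 0.00132), fell short of the fold under library size alone (0.52), and was at 0.07 in Kansl1 cKO. Of 6 genes of transport along microtubules, edgeR called 0 in MOF cKO, as did DESeq2, with 1 lower and 1 higher at an unadjusted p under 0.05. The most abundant of them, the kinesin gene Kif5b, was at 211 and 164 CPM in control and 220 and 180 CPM in MOF cKO (0.09, edgeR adjusted p = 0.664), a value that turned to -0.22 under library size alone, to -0.07 without control replicate 2 and to -0.06 without MOF cKO replicate 1.

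**Figure D3:**
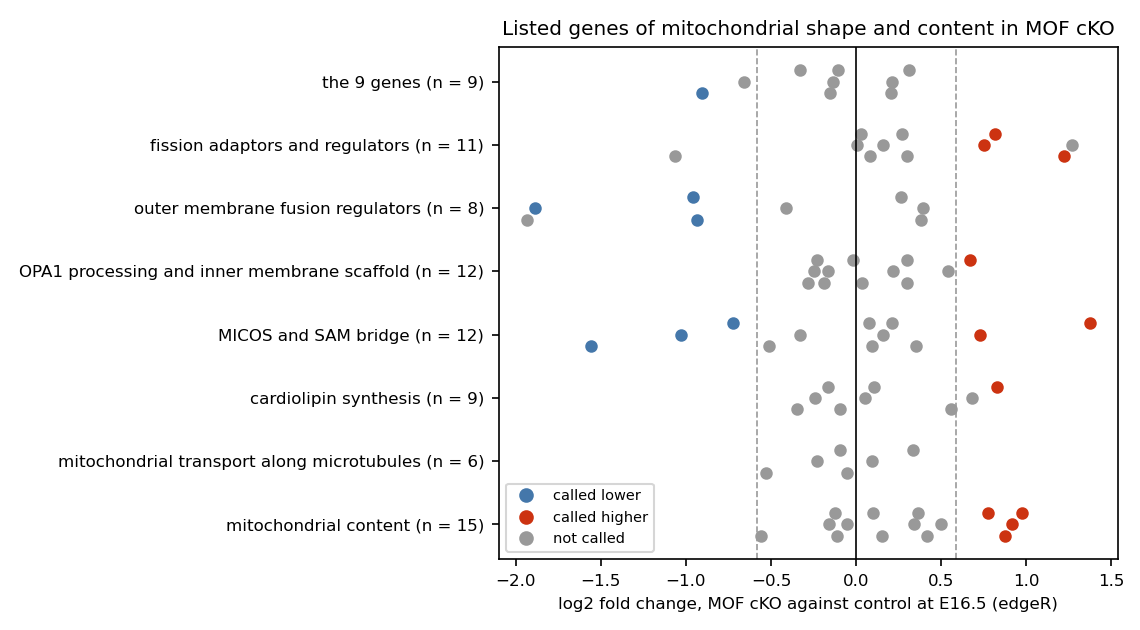
Log2 fold change in MOF cKO against control at E16.5 for the 9 genes and for each further list, with every point a gene; dashed lines mark a 1.5-fold change, and colours mark genes called lower (blue), called higher (red) or not called (grey). Both lists of regulators have uncalled genes on either side of 0, and under library size alone the calls over the 60 further genes go from 6 lower and 7 higher to 10 lower and 1 higher, while those over all 13956 genes go from 1338 and 1395 to 2743 and 769.

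A list of 15 genes, chosen by hand for mitochondrial content, gives a setting for these values, although their RNA does not measure content itself. The study reports that nuclear-encoded mitochondrial genes, a far wider set, were among those significantly lower in MOF cKO. It found this in the E16.5 bulk RNA and in single-cell RNA. In MOF cKO 4 were called higher, against 10% of all tested genes, and 0 lower, against 9.59%, with their median at 0.34 (log2 fold change) beside -0.02. At an unadjusted p under 0.05, 8 were higher and 1 lower, where 3314 and 3506 of all 13956 genes were, both MOF cKO libraries lay above both controls for 10 and below them for 3 (34.9% and 37.7% of all tested genes), and the lowest value was -0.56. Their summed level was 4270 and 4060 CPM in control and 5600 and 5390 CPM in MOF cKO. Both MOF cKO sums were above both control sums. The sums and the median were taken under TMM only, while library size alone lowered the median of all genes from -0.02 to -0.32. Tomm40 (0.97, edgeR adjusted p = 0.000763) and Tomm20 (0.88, edgeR adjusted p = 0.00239) of the outer-membrane import machinery, and the matrix chaperones Hspa9 (0.92, edgeR adjusted p = 0.000867) and Hspd1 (0.78, edgeR adjusted p = 0.00137) were the 4 called. Under library size alone Tomm40 and Hspa9 were still called and Tomm20 and Hspd1, at 0.57 and 0.47, were not. At P0.5 the sums were 3460 and 3210 CPM in control and 3520 and 3490 CPM in Kansl1 cKO, with 0 called by edgeR and 0 by DESeq2, 1 lower and 0 higher at an unadjusted p under 0.05, and a median of 0.03. The part of mitochondrial content in the levels of the 9 genes was not tested.

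From E16.5 control to P0.5 control, 11 of the 58 tested further genes were called lower and 13 higher by edgeR, with a median of -0.10 beside -0.13 over all genes. These counts were near the background, where 20.6% of all tested genes were called lower and 19.6% higher. Under library size alone these became 20 lower and 10 higher, while over all 14565 genes 2997 lower and 2854 higher became 4375 and 2144. The genes called lower went to 4 without E16.5 control replicate 2, to 6 without E16.5 control replicate 1 and to 6 without P0.5 control replicate 1. In the difference between the deletions 1 of the 58, Miga1, was called lower, against 1.17% of all tested genes, and 0 higher, against 1.76%. At an unadjusted p under 0.05 in edgeR 6 were lower and 10 higher, where 2388 and 2152 of all 14565 genes were. DESeq2 called 1 lower and 3 higher, where over all genes it called 492 and 940. The edgeR call of Miga1 did not hold without any 1 of the 8 libraries, where its value stayed between -2.07 and -1.57.

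All 9 genes had promoter windows of 250 bases before to 50 after the start in RefSeq (GRCm38.p6), 14 windows in all. The letters GCATGCGC, the core bound by NRF1, a regulator of nuclear genes for mitochondria, were searched on both strands and were held by 2.71% of all 32851 windows. Of the 9 genes only Opa1 held it, with 2 overlapping matches on opposite strands. The ETS core CCGGAAGT, held by 3.89% of windows, was in the window of Mfn1 and in both windows of Fis1, and the YY1 core AAGATGGC, held by 2.75%, was in none of the 14. The Opa1 window (chr16:29579084-29579383, plus strand) and the Mfn1 window (chr3:32529232-32529531, plus strand) are shown because these genes had the lowest fold changes of the 9 in MOF cKO, with the matched letters in capitals. A match describes the sequence and is not evidence of binding.
Opa1: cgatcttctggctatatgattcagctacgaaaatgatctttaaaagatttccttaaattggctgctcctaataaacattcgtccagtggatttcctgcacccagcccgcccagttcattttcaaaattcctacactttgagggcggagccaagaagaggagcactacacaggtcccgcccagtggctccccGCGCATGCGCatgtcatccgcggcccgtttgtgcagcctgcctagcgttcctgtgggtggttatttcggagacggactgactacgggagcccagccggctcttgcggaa
Mfn1: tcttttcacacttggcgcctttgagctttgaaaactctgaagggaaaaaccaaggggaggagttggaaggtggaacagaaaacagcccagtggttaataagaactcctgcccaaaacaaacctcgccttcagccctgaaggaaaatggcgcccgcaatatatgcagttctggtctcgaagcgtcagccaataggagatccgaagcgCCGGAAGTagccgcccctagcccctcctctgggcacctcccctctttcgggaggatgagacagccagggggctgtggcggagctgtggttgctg

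The genes whose log2 CPM followed Opa1 most closely over the 8 libraries, out of 14564 compared, were Trmu (Pearson r = 0.974), Mysm1 (r = 0.969) and Hcfc2 (r = 0.967). These values describe 4 groups that differ in stage and genotype, with 2 libraries each, and carry no test. In the annotation, Chchd3 and Dnm1l are each overlapped by an antisense transcript of their own, Immt and Mfn2 each by a pseudogene on the opposite strand, Immt also by an unverified transcript on that strand, and a processed transcript on the opposite strand overlaps Mff. On the same strand, an unverified transcript overlaps Chchd3 and a sense intronic transcript overlaps Mff. None of these was among the listed genes, and the strand setting of the counting was not known, so reads of such transcripts cannot be told apart from those of these genes.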

How the data were processed

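RNA of 8 libraries was sequenced in paired-end mode after a NEBNext Ultra Directional preparation. The authors aligned reads to mm10 and deposited counts of reads on each gene from HTSeq, without normalization; the methods name HISAT2 as the aligner and the labels TopHat2. Entries that name no gene, between 21.1% and 26% of a library, were left out. In R 4.3.3, edgeR 4.0.16 (with limma 3.58.1) was used for the filter on low counts (filterByExpr), for TMM factors and for the quasi-likelihood test, with Benjamini-Hochberg adjustment. Each deletion was fitted with its own controls, while the difference between deletions and the comparison of controls used 1 fit over 8 libraries. The adjusted p of 0.01 and the fold change of 1.5 are the thresholds of the study. Lengths and coordinates came from GENCODE M21, which held 92.9% of the listed symbols. Genes named beyond the 9 are those of each list called in either deletion, at most 4 per list and deletion by smallest p, or else its most abundant gene, with Chchd10 added after its values were seen. The alternatives were DESeq2 1.42.0, other scalings, another filter on low counts, an adjusted p of 0.05 with no fold minimum, the replicate number as a block, 1 fit over all libraries and leaving out each library. The genes and lists were chosen with earlier results of these data known. Reads over single exons, isoforms and proteins were not analysed here, and Flg, a listed suprabasal marker, was not matched in the counts.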

Additional observations from a re-analysis of the deposited data

Results flagged for a closer look

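Miga1, a promoter of outer-membrane fusion, differed between the 2 deletions by a test of the difference itself. It was at 24.6 and 23.0 CPM in E16.5 control and 7.23 and 5.63 CPM in MOF cKO, and at 10.5 and 10.6 CPM in P0.5 control and 10.3 and 10.2 CPM in Kansl1 cKO. The MOF cKO effect minus the Kansl1 cKO effect was -1.875 on the log2 scale (edgeR quasi-likelihood, Benjamini-Hochberg adjusted p = 0.00601). Without any 1 of the 8 libraries the value stayed between -2.07 and -1.57 and missed the threshold, with adjusted p from 0.0113 to 0.0247. In P0.5 control Miga1 was already lower than in E16.5 control (-0.95, edgeR adjusted p = 0.0031). Gene deleted, stage and isolation cannot be told apart in this difference. Markers differed in it too, where 1.76% of all tested genes were called higher and 1.17% lower. Called higher were 7 of 12 tested leukocyte (median 4.18), 1 of 8 fibroblast (2.81) and 1 of 5 suprabasal markers (1.05). Of 6 endothelial and mural markers (median 2.87) and 6 muscle and nerve markers (7.40) 0 were called. At an edgeR adjusted p of 0.05, 3 of each of these lists and 6 fibroblast markers were higher, and 2 of 7 basal markers were lower. Of 6 hair follicle markers (median -0.99) 2 were called lower. The part of these cells was not tested.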

How the results depend on the processing

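Each group has 2 libraries, so every estimate of spread rests on few values shared across genes. Leaving out a library leaves 1 in its group, which is assumed to vary like the others. Sex was not matched and marker transcripts of cells other than keratinocytes moved with genotype; their part was not tested. For the changes below the cause was not tested.

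In MOF cKO, Mfn1 was called under all 12 alternatives. The number of the 9 genes called lower went from 1 to 2, by the addition of Opa1, under DESeq2, an adjusted p of 0.05, the filter keeping every gene with at least 1 count, library size alone and the replicate block. It also depended on the library left out, with Opa1 at -0.87 without E16.5 control replicate 2 and -0.42 without E16.5 control replicate 1. Over all genes, 1338 lower and 1395 higher became 1735 and 1781 under DESeq2 and 2758 and 2654 at an adjusted p of 0.05. They became 2197 lower under the filter of 1 count, and 2743 and 769 under library size alone. The further genes went from 6 lower to 10 and from 7 higher to 1 under library size alone, and to 11 higher at an adjusted p of 0.05. Library size alone turned Oma1 to -0.095, Mff to -0.10, Kif5b to -0.22 and Kansl1 to -0.17. Leaving out a library moved Oma1 between -0.044 and 0.43, Mff between -0.032 and 0.41 and Kif5b between -0.073 and 0.28. Without E16.5 control replicate 1, Chchd3 went from -0.14 to -0.05 and Dnm1l from -0.11 to -0.027. Kat8 went from -0.14 to -0.07 without MOF cKO replicate 1.

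In Kansl1 cKO, 0 of the 9 genes and 0 further genes were called under any alternative. Over all genes, 0 lower and 0 higher became 55 and 35 under DESeq2, 117 and 73 under the filter of 1 count, 1 lower under library size alone, and between 4 and 197 lower and between 0 and 76 higher when a library was left out. Dnm1l (0.00) turned to -0.007 under DESeq2, -0.015 under median-of-ratios, -0.049 under upper-quartile and -0.048 under library size alone, and ranged from -0.047 to 0.019 with a library left out. Mfn1 (-0.01) turned to 0.008 under the filter of 1 count and 0.027 in 1 fit over all libraries, and ranged from -0.18 to 0.15. Chchd2 (0.02) turned to -0.028 under upper-quartile and -0.024 under library size alone, and Hspa9 (0.03) to -0.017 and -0.004. With a library left out, Chchd2 ranged from -0.14 to 0.17, Hspa9 from -0.26 to 0.35, Hspd1 from -0.06 to 0.30, Tomm40 from -0.27 to 0.067, Usp30 from -0.31 to 0.12, Chchd6 from -0.18 to 0.058, Pgam5 from -0.41 to 0.004 and Mtfr1l from -0.20 to 0.099. Mtfr1l turned to 0.007 in 1 fit over all libraries.

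In the difference between the deletions, 170 lower and 256 higher over all genes became 492 and 940 under DESeq2, 985 and 1027 at an adjusted p of 0.05 and 539 and 1112 under the filter of 1 count, ranged from 12 to 135 lower and 61 to 288 higher with a library left out, and split as 245 and 219 under library size alone. Of the 9 genes 1 was called lower at an adjusted p of 0.05. Of the further genes, 3 were called higher under DESeq2, 3 under the filter of 1 count, and 3 lower and 3 higher at an adjusted p of 0.05, and 0 lower with any library left out. Mfn2 (-0.02) turned to 0.07 under DESeq2, 0.075 under median-of-ratios, 0.002 under upper-quartile and 0.10 under the filter of 1 count. Chchd3 (-0.05) turned to 0.042, 0.047 and 0.073 under DESeq2, median-of-ratios and the filter of 1 count, and Immt (0.19) to -0.033 under library size alone. With a library left out, Mfn2 ranged from -0.19 to 0.22, Chchd3 from -0.088 to 0.066, Mff from -0.004 to 0.57, Oma1 from -0.46 to 0.15 and Dnm1l from -0.23 to 0.074.

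Between the control groups, the 9 genes called lower went from 1 to 3 at an adjusted p of 0.05 and to 2 under library size alone, and those called higher from 2 to 1 under library size alone; with a library left out, between 0 and 1 were lower. Over all genes, 2997 lower and 2854 higher became 4375 and 2144 under library size alone, and the lower ranged from 1543 to 2953 with a library left out. The further genes called lower went from 11 to 20 under library size alone and ranged from 4 to 11. Chchd3 turned to -0.26 under library size alone, and Mfn1 (-0.04) to 0.094 under DESeq2, 0.099 under median-of-ratios and 0.062 under the filter of 1 count, with a range from -0.18 to 0.17.

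The study describes 2 pairs of samples in each experiment, with littermate controls, but neither it nor the labels say that replicate numbers mark these pairs. Deviations of same-numbered libraries from their group means correlated at 0.206 in the MOF comparison and -0.202 in the Kansl1 comparison, over 2 pairs each. With the replicate number as a block, genes called lower in MOF cKO went from 1338 to 2263 and higher from 1395 to 1903, with Opa1 called at -0.64, and Kansl1 cKO kept 0 and 0. Pairing the Kansl1 cKO libraries crosswise, chosen after seeing the data, gave 1 gene lower and 0 higher over all genes, with Mfn1 at 0.003.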
